A study of Mus musculus with 2 samples.

Results

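The 10 genes described here encode effectors of neuroepithelial progenitors, the cells that line the early neural tube. They were chosen by name (Nes, Vim, Fabp7, Slc1a3, Prom1, Cdh2, Hmga2, Lin28a, Lin28b and Msi1), and each accessible interval was given to the protein-coding gene whose transcription start site (TSS) lay nearest. In this way 179 of 119502 intervals belonged to the 10 genes, 10 of them over a TSS and 169 distal. No interval was shared between genes of the set or lay equally near another gene.

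Neuroepithelial cells are the dividing, polarised founders of the neural tube, and they pass into radial glia as neurogenesis proceeds. Nestin and vimentin form their intermediate filaments, N-cadherin (Cdh2) holds their apical junctions together, prominin 1 (Prom1) marks their apical membrane, and LIN28 proteins, HMGA2 and Musashi 1 (Msi1) are regulators of early, proliferative progenitors. The fatty acid binding protein FABP7 and the glutamate transporter GLAST (Slc1a3) are known as radial glial genes that come up later than the others.

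ATAC-seq, which reads open chromatin through adapters placed by the Tn5 transposase, was run on live sorted cells to serve as a standard for fixed, antibody-stained cells. The cells came from the mouse embryonic stem cell line Olig2-mKate2, in which a red fluorescent protein is made together with the motor neuron progenitor (pMN) factor OLIG2. Cells were differentiated to day 5 with 100 nM SAG, a Sonic hedgehog pathway agonist, and 100 nM retinoic acid, sorted as mKate2-positive, and 50000 cells entered each reaction. The labels gave 1 group of 2 replicates, which may be technical, so no conditions were compared and each spread is only that between these libraries. All cells shared the reporter allele and both agents. Per the study the sorted fraction includes newly born motor neurons and some cells positive for both OLIG2 and Nkx2-2, the latter a p3 marker, and it is a bulk sample in which more cells with an open region and more opening per cell cannot be told apart.

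The libraries held 31876165 counts (replicate 1) and 31672240 counts (replicate 2) in intervals, with a median of 65 and 66 counts per interval. Levels are given as normalised counts per kb, meaning counts divided by a size factor and by interval length, as mean ± SD (n = 2). Fragments carried no molecular identifiers, so counting intervals cover counting error only. Of the pMN and neural progenitor markers, 6 of 6 had an interval over the TSS, with Olig2 at 946 ± 23.2 counts per kb and a list median of 904. They ran from Pax6 (187 ± 3.57, percentile 7.83 of promoters) to Sox1 (1498 ± 73.3), and Pax6 was at 613 with starts of protein-coding transcripts. Of the neuronal markers, 7 of 7 had such an interval, with a median of 552. Of p3 and floor plate markers 3 of 5 had such an interval, of astrocyte markers 2 of 5 and of fibroblast feeder markers 4 of 6. Of pluripotency markers 2 of 5 had one, of neuromesodermal markers 3 of 4 and of the unrelated genes Alb, Ins2, Myh6 and Hbb-bs 0 of 4. Among all protein-coding genes the share was 61.5%. The 3 of 5 of p3 and floor plate markers was near it, and 4 of 6 and 3 of 4 do not stand below it. With genes lacking one at 0, the medians were 446 (p3 and floor plate), 185 (feeder) and 240 (neuromesodermal) counts per kb, and 0 in the rest. Foxa2 (584), Aldh1l1 (551) and Pdgfra (860) lacked one at the gene's TSS but had one over the start of a protein-coding transcript. With such starts 4 of 5 p3 and floor plate markers had an interval, and Nkx2-2 was at 879 against 484. The astrocyte marker Gfap had an interval over the gene's TSS but none over a start of a protein-coding transcript. The part of other cell types in the values below was not tested.

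The sequences that follow are those of the most accessible distal regions near Nes, Slc1a3 and Hmga2, of the intronic region of Nes, and of the region just upstream of Fabp7, the gene with the least accessible promoter of the set. The distal sequences are the central 300 bp of each interval, on the plus strand of mm10, and none overlaps an annotated exon. They are Nes at -10.2 kb from its TSS (chr3:87960731-87961030), Nes at 3.2 kb in its intron 2 (chr3:87974120-87974419), Slc1a3 at 81.2 kb (chr15:8629388-8629687) and Hmga2 at 43.3 kb in its intron 3 (chr10:120433050-120433349). The last is the 250 bp before the Fabp7 TSS (chr10:57784631-57784880). Capitals mark letters searched for on both strands: ACAAAG (SOX factors), AACAAT (a further SOX motif), ATGCNAAT (POU), CATATG (E-box), CAGATG (a further E-box), CAGCTG (likewise an E-box), TAATTA (homeodomain), GACCACCCA (GLI) and GTGGGAA (RBPJ), and upstream of Fabp7 also TATAAA (the TBP motif), CCAAT (NFY) and GGGCGG (SP).
Nes upstream: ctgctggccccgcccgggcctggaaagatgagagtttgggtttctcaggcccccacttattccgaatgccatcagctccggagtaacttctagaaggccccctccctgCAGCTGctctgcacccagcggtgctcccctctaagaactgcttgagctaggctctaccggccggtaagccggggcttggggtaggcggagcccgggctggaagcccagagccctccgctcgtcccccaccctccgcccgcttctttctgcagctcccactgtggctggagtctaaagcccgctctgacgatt
Nes intron: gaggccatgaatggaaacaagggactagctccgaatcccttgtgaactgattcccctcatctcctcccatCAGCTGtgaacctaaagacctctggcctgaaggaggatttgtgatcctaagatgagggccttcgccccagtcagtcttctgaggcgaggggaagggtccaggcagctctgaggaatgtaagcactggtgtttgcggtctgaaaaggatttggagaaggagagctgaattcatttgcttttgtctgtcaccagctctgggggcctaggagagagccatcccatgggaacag
Slc1a3 downstream: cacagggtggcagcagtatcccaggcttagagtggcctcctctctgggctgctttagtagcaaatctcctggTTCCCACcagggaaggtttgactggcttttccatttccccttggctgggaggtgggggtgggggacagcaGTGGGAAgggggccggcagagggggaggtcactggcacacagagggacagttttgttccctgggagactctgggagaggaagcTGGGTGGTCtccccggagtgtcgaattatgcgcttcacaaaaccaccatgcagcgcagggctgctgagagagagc
Hmga2 intron: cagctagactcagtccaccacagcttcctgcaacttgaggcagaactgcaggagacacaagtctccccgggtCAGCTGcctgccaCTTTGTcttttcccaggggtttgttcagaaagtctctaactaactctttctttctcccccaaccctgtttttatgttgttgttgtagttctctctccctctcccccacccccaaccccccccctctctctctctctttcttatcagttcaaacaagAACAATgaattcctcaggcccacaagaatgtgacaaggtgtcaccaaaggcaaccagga
Fabp7 upstream: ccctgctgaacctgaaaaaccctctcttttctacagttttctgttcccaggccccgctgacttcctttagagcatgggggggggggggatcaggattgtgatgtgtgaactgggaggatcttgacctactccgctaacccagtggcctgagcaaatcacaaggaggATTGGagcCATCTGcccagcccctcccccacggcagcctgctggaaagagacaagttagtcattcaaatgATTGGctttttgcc

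All 10 genes had an interval over the TSS, a state shared by 61.5% of protein-coding genes (13500 of 21938). The median of their promoter levels was 753.5 ± 11.2 counts per kb, below the 884 of genes that had such an interval and above the 402 of all protein-coding genes, with genes that lacked one set to 0. Lin28b, Cdh2, Prom1 and Vim exceeded the first of these medians, and 8 of 10 genes, all but Slc1a3 and Fabp7, exceeded the second. From the highest to the lowest, the order was Lin28b, Cdh2, Prom1, Vim, Nes, Lin28a, Hmga2, Msi1, Slc1a3 and Fabp7, and the 2 replicates did not overlap between any neighbours. The 95% exact Poisson intervals of the pooled counts did overlap between Cdh2 and Prom1, between Prom1 and Vim, and between Lin28a and Hmga2, so those neighbours were not resolved by their depth.

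**Figure D1:**
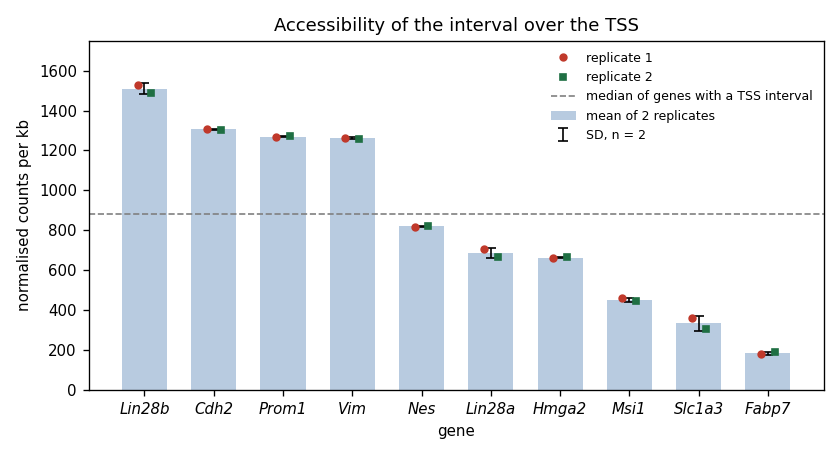
Normalised counts per kb of the interval over the TSS of each gene (bars, mean of 2 replicates; error bars, SD; points, single replicates), with the median of all genes that have such an interval as a dashed line at 884. Lin28b, Cdh2, Prom1 and Vim stand above the line, and Fabp7 is lowest at 184.

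Length bore on this order. The promoter intervals of the set had a median of 2575 bp against 1237 bp over all genes with one, and a level per kb spreads the counts of a broad region. Hmga2 stood at percentile 35.0 of promoters by counts per kb and at 92.0 by counts per interval, with an interval of 3974 bp. Nes moved from 45.5 to 85.1 and Lin28a from 36.7 to 87.8. By counts per interval, 7 of 10 genes exceeded the median of promoters, against 4 by counts per kb. Fabp7 stayed low on both scales, at 7.71 and 12.0, as did Slc1a3 at 15.2 and 17.5.

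The intermediate filament genes differed in where their accessibility lay. The promoter of Vim (chr2:13573387-13576649) held 4124 and 4109 counts in replicates 1 and 2, or 1264 and 1259 counts per kb (1262 ± 3.98). This interval took 96.0% of all counts given to Vim, and its 3 distal intervals held few counts. The one at 23.2 kb was the highest per kb, with 32 and 29 counts in 226 bp (135 ± 9.46 counts per kb, percentile 53.9 of distal intervals). The one at 10.2 kb held the most counts, 112 and 113 in 1297 bp (86.7 ± 0.495 counts per kb). In Nes the counts were shared between the promoter, which still held the most of any single interval, and the distal intervals. Its promoter (chr3:87970302-87972964) held 2174 and 2192 counts, or 817 and 823 counts per kb (819.8 ± 4.31), which was 39.2% of the gene's counts.

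The strongest distal interval of all 10 genes lay at -10.2 kb from Nes, in intergenic sequence (chr3:87960621-87961140), with 1482 and 1396 counts in 520 bp. Its level of 2851 and 2684 counts per kb (2767 ± 119) was 3.49 and 3.26 times that of the Nes promoter, and it ranked at percentile 99.95 of all distal intervals. The second intron of Nes is known to hold an enhancer active in neural progenitors. The interval in intron 2, at 3.2 kb (chr3:87973761-87974778), held 1187 and 1158 counts, or 1152 ± 20.8 counts per kb. Past the 3′ end of the gene, the interval at 14.5 kb (365 and 360 counts) reached 1147 ± 11.9 and the one at 12.2 kb (422 and 416 counts) 695 ± 7.44. All 4 distal intervals of Nes thus lay far above the median of all distal intervals, 125 ± 2.05 counts per kb. Per kb, 3 of them exceeded the Nes promoter in both replicates.

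The radial glial genes had the weakest promoters. At Fabp7 (chr10:57783495-57785215) the replicates held 308 and 327 counts, or 179 and 190 counts per kb (184 ± 7.70), at percentile 7.71 of promoters. Fabp7 was given 2 distal intervals, one with 50 and 45 counts at -40.9 kb (59.5 ± 4.46 counts per kb) and one with 4 and 3 counts at -31.4 kb. The promoter and both distal intervals given to Fabp7 were thus weak. Its number of intervals, 3, equalled the median over all protein-coding genes, and regions nearest to other genes were not read for Fabp7.

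The promoter of Slc1a3 (chr15:8709607-8711007) held 507 and 430 counts, or 362 and 307 counts per kb (334 ± 39.1), the widest relative spread among the promoters of the set (exact binomial p = 0.0119, 0.431 after Benjamini-Hochberg adjustment over all intervals). Slc1a3 differed from Fabp7 in its surroundings, with 25 intervals, of which 10 had a mean normalised count over 100. The strongest lay at 81.2 kb, past the 3′ end of the gene in intergenic sequence (chr15:8629137-8629937), with 1071 and 1083 counts (1345 ± 9.82 counts per kb). A further one at 51.0 kb, in intron 3, held 899 and 970 counts (1107 ± 58.8 counts per kb). The promoter took 9.23% of the counts given to Slc1a3, the lowest share of the set, and its strongest distal interval exceeded it 3.69-fold and 4.41-fold in replicates 1 and 2.

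Prom1, which encodes a pentaspan protein of apical membrane protrusions, resembled Vim. Its promoter (chr5:44100217-44102104) held 2391 and 2401 counts, or 1267 and 1271 counts per kb (1269 ± 3.01), and 86.2% of the gene's counts. That interval covered the most upstream annotated starts of Prom1. Starts of shorter protein-coding transcripts at 44099186 to 44099225, 44094713 to 44094768 and 44004919 lay in no interval. The strongest of its 8 distal intervals, at -4.5 kb over an exon of the noncoding gene Gm42966, held 68 and 81 counts in 205 bp (363 ± 44.6 counts per kb).

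Cdh2, on chromosome 18, had both a strong promoter and the largest neighbourhood. The promoter interval of 3403 bp held 4447 and 4436 counts, or 1307 and 1303 counts per kb (1305 ± 3.04). There were 76 intervals nearest to its TSS, reaching as far as 1406 kb from it, and 16 of them lay within 100 kb. The strongest distal one was in intron 2 at 133.8 kb, with 857 and 851 counts in 378 bp (2268 and 2250 counts per kb, 2259 ± 12.5), 1.73 times the promoter on average. In the same intron, an interval at 105.4 kb held 648 and 694 counts (802 ± 38.4 counts per kb). The interval at 515.5 kb, in intergenic sequence past the 3′ end, held 1404 and 1369 counts (1219 ± 22.5 counts per kb). Nearness to a TSS does not show which gene a region acts on, and this applies most to such remote intervals.

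Hmga2 encodes an AT-hook protein that binds the minor groove of DNA and is a known target of let-7 microRNAs. Its promoter (chr10:120474435-120478408) held 2627 and 2642 counts, or 661 and 665 counts per kb (663 ± 2.29). Of 35 intervals, 12 had a mean over 100, and 5 exceeded the promoter per kb. These included 3 in intron 3, at 43.3 kb (1214 and 1229 counts, 1264 ± 10.2 counts per kb), at 59.0 kb (1533 and 1534 counts, 1107 ± 0.129) and at 87.7 kb (796 and 853 counts, 973 ± 47.0). On the upstream side lay intervals at -209.8 kb (890 and 911 counts, 1082 ± 17.2) and at -76.2 kb (1448 and 1431 counts, 924 ± 8.25), so strong intervals of Hmga2 lay on both sides of the TSS.

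LIN28A and LIN28B bind let-7 precursors and block their maturation. The promoter of Lin28a (chr4:134016900-134020276) held 2384 and 2258 counts, or 706 and 668 counts per kb (687 ± 26.8). An interval at 6.4 kb over a UTR of Lin28a was slightly stronger per kb, with 1713 and 1590 counts (824 ± 43.9 counts per kb). It too held an annotated start of a protein-coding Lin28a transcript. The most accessible promoter of the set per kb was that of Lin28b (chr10:45485616-45487067), with 2218 and 2163 counts, or 1528 and 1489 counts per kb (1509 ± 27.7). This reading depended on the scale and on the choice of start. By counts per interval Lin28b (2191, in 1452 bp) was below Cdh2 (4441.5), Vim (4116.5), Hmga2 (2634.5), Prom1 (2396) and Lin28a (2321). The start at 45486395 belongs to a transcript annotated as processed, not protein-coding, and the only protein-coding transcript starts at 45470201, in an interval at 16.2 kb with 522 and 472 counts (237 ± 17.0 counts per kb). With starts of protein-coding transcripts Lin28b would stand second from the bottom, between Slc1a3 and Fabp7. Of its other intervals, the one in intron 2 at 40.0 kb was the strongest, with 389 and 404 counts (537 ± 14.0 counts per kb).

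Msi1 encodes an RNA-binding protein of neural stem and progenitor cells, and an enhancer in one of its introns is known from such cells. The promoter of Msi1 (chr5:115429154-115431640) held 1145 and 1110 counts, or 461 and 446 counts per kb (453 ± 10.2). In intron 6, at 7.4 kb, an interval that also covers an exon of the antisense gene 4930430O22Rik held 2330 and 2270 counts (1260 ± 24.0 counts per kb). Of 7 distal intervals 5 exceeded the promoter per kb, and the others, at -9.5 kb and -7.0 kb, held 7 and 9 counts and 18 and 29 counts.

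**Figure D2:**
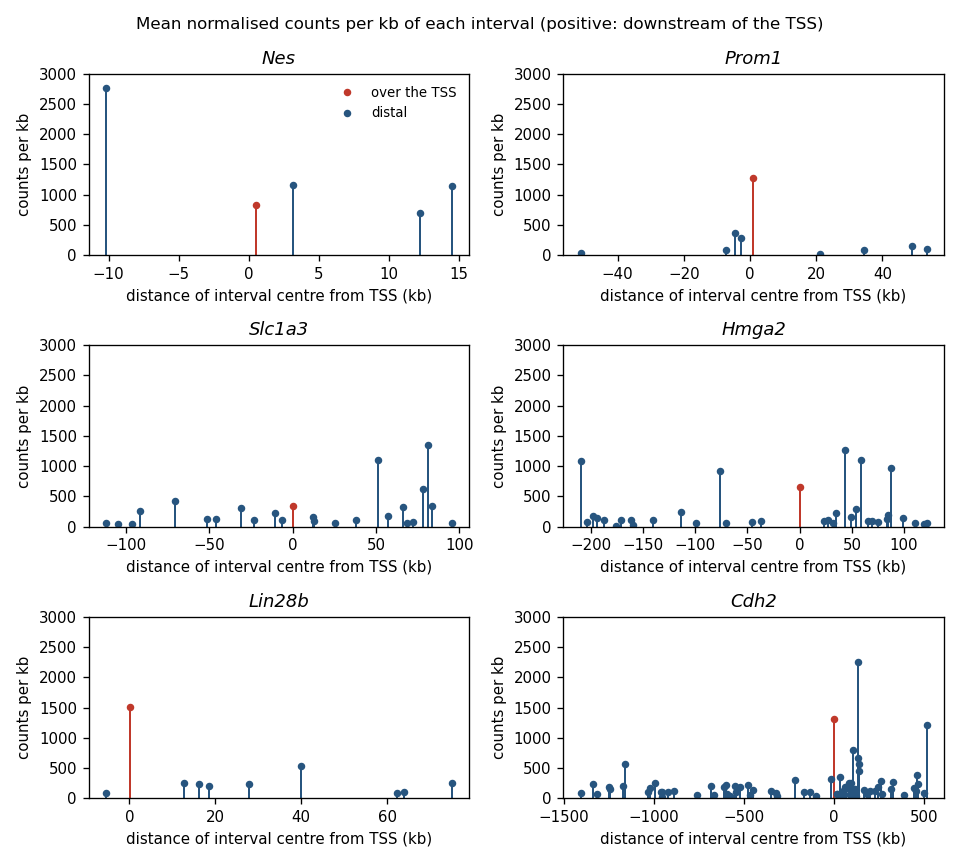
Mean normalised counts per kb (vertical, 2 replicates) of each interval of Nes, Prom1, Slc1a3, Hmga2, Lin28b and Cdh2 against the distance of its centre from the TSS in kb (horizontal, positive downstream, a separate scale for each gene), with the TSS interval in red and distal intervals in blue. The tallest distal lines are those of Nes at 2767 and Cdh2 at 2259 counts per kb.

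In 6 of the 10 genes (Nes, Slc1a3, Cdh2, Hmga2, Lin28a and Msi1) a distal interval was more accessible per kb than the interval over the TSS, against 25.8% of the 10910 genes with both kinds. There were 20 such intervals. A gene with more intervals has more chances of this, and the genes of the set had a median of 8.5 intervals against 3 over all protein-coding genes. Their TSS intervals were also long, with a median of 2575 bp against 1237 bp, which lowers a level per kb. By mean normalised count per interval, a distal interval exceeded the TSS interval in Slc1a3 (1077 against 469) and Msi1 (2300 against 1128). None did so in Nes (1439 against 2183), Cdh2 (1387 against 4441.5), Hmga2 (1533.5 against 2634.5) or Lin28a (1652 against 2321). The share of all genes on this scale was not determined, and the 25.8% holds for levels per kb only. In the other four genes, Vim, Prom1, Fabp7 and Lin28b, the strongest distal interval reached 0.107, 0.286, 0.323 and 0.356 times the promoter.

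The distal intervals as a whole did not stand apart at the median, which was 127 ± 3.17 counts per kb against 125 ± 2.05 for all distal intervals. A mean normalised count over 100 was reached by 67 of the 179 intervals (37.4%), against 38.8% of all intervals, and by 57 of the 169 distal ones (33.7%), against 32.4% of all distal intervals. Just inside that limit were means of 100.5 (Slc1a3 at 38.1 kb) and 105.0 (Hmga2 at 85.1 kb), and just outside were 97.0 (Slc1a3 at 57.1 kb) and 95.5 (Hmga2 at -198.2 kb). At the upper end, 14 of the 169 (8.28%) exceeded the median of all TSS intervals, 853 counts per kb, as did 3.37% of all distal intervals. These were intervals of Nes, Msi1, Slc1a3, Hmga2 and Cdh2.

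**Figure D3:**
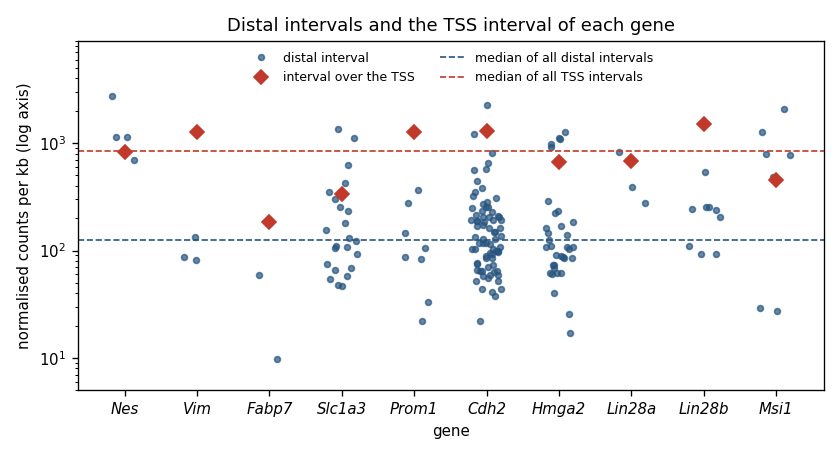
Normalised counts per kb on a log axis of every distal interval (blue points, mean of 2 replicates) and of the TSS interval (red diamonds) of each gene, with the medians of all distal intervals (blue dashed line, 125) and all TSS intervals (red dashed line, 853). All distal points of Nes and Lin28a are above the blue line, and those of Fabp7 are below it.

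Distance divided the set. Of the 179 intervals, 76 (42.5%) lay over 100 kb from the TSS, compared with 27.1% of all intervals, and Cdh2 and Hmga2 together held 111 of the 179. Within 100 kb lay 16 of the 76 intervals of Cdh2, 21 of the 35 of Hmga2 and 23 of the 25 of Slc1a3. The other genes had no interval beyond 100 kb, so values at that distance describe these loci, mostly Cdh2. Between 10 and 100 kb, 34 of 80 intervals (42.5%) had a mean over 100, against 31.0% of all intervals at that distance, whereas beyond 100 kb 17 of 76 did so (22.4% against 28.8%). By annotation, 76 distal intervals were intergenic and 55 lay in an intron with no exon.

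The replicates were close at these loci. The two-sided exact binomial test of both counts, adjusted by Benjamini-Hochberg over all intervals at a limit of 0.01, called 0 of the 179 (0% of all intervals), with a smallest adjusted p of 0.236. At an unadjusted p under 0.05 it called 14 (7.82%), against 8.39% of all intervals. This test compares libraries and not conditions. The largest differences among intervals with a mean over 100 were at Lin28b 12.8 kb (245 and 182 counts), Slc1a3 38.1 kb (88 and 113 counts) and Cdh2 136.0 kb (164 and 206 counts). The log2 ratios of replicate 2 to replicate 1 were -0.43, 0.36 and 0.33, with adjusted p of 0.293, 0.671 and 0.547 in the same exact test.

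Relatives of the same families gave a point of reference for the promoters. Vim, at 1262 counts per kb, stood above the type III filament genes Des of muscle (109 and 98.3 counts per kb) and Gfap of astrocytes (152 and 139). The Gfap interval lay over the gene's TSS, and no interval lay over a start of a protein-coding Gfap transcript. Prom1, at 1269, stood above Prom2 (153 and 188). Cdh2, at 1305, stood above the epithelial cadherin gene Cdh1 (317 and 296) and less far above Cdh4 (991 and 978). These were the 5 of 12 pairs in which the gene of the set was the higher.

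In the others the relative was higher. Nes (819.8) was below Synm (1143 and 1053), another intermediate filament gene. Fabp7 (184) was below Fabp5 (1104 and 1092) and Fabp3 (449 and 431). Slc1a3 (334) was below Slc1a2 (494 and 551), the other main astrocytic glutamate transporter, Hmga2 (663) was below Hmga1 (1277 and 1197) and Msi1 (453) was below Msi2 (748 and 673). Lin28a was below Lin28b at the TSS used here. In none of the 12 pairs did the replicates of the genes overlap, but the order of Nes, Msi1 and Lin28a with their relatives turned with the setting. By counts per interval Nes was above Synm, Msi1 above Msi2 and Lin28a above Lin28b, so that the gene of the set was the higher in 8 pairs. With starts of protein-coding transcripts Lin28a (738) was above Lin28b (237), for 6 pairs.

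**Figure D4:**
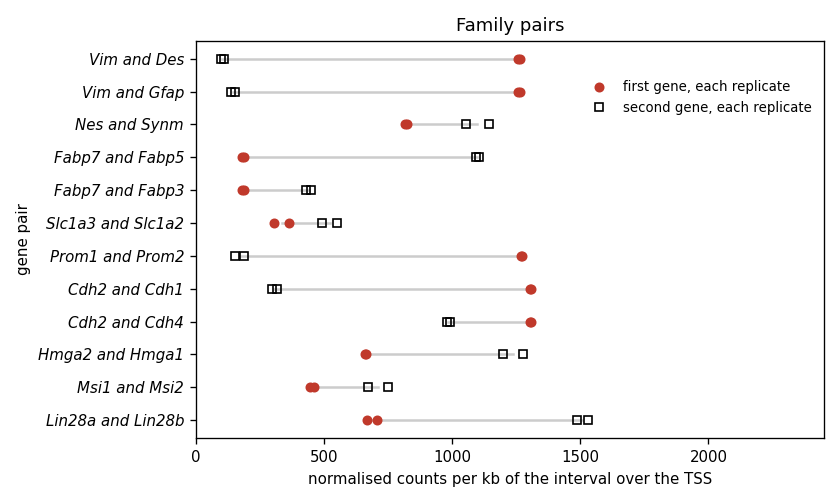
Normalised counts per kb of the TSS interval (horizontal) for each of 12 gene pairs (rows), with the first gene of a pair as filled circles and the second as open squares, 1 symbol per replicate, and grey lines joining the means. The widest gaps are those of Vim and Des, Vim and Gfap, and Prom1 and Prom2, where the first gene is at 1262, 1262 and 1269 and the second at 103, 145 and 171.

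Partners of these genes were read the same way. Of 10 genes of the LIN28 and let-7 axis, which includes let-7 processing enzymes and IGF2BP proteins, 10 had an interval over the TSS, with a median of 1048 ± 58.9 counts per kb. They ran from Trim71, a let-7 target (605 and 532), to the microRNA-processing enzyme gene Dicer1 (1385 and 1350). Of 10 genes of apical junctions and polarity, the partners of N-cadherin in the neuroepithelium, 9 had one, and the median was 1096 ± 26.1, from 541 ± 35.3 in Tjp1 to 1973 ± 18.6 in Numb. The gene without one was Ctnnb1, the gene of beta-catenin, which had an interval over the start of a protein-coding transcript (598 counts per kb).

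Of 10 genes typical of later radial glia and astrocytes, 6 had an interval over the TSS, a share near the 61.5% of all protein-coding genes. Their median was 168 ± 0.777 with the rest at 0, against 402 over all protein-coding genes. They ran from Gfap (145 ± 9.27) to Glul, the glutamine synthetase gene (2389 ± 24.2). Fabp7 (184) and Slc1a3 (334) lay above that median and below the 513 of the 6 genes that had an interval. This placement turned with starts of protein-coding transcripts, where Gfap had no interval and Aldh1l1 gained one. The list median was then 343, and Fabp7 and Slc1a3, both unchanged, lay below it. The replicates of Slc1a3 (362 and 307) lay on either side of 343.

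Base composition varied widely among the promoters and followed their order of accessibility only in part. The least accessible promoters, those of Fabp7 and Slc1a3, had the lowest GC contents of the set. The most accessible per kb, that of Lin28b at the gene's TSS, had the highest. The Fabp7 interval had a GC content of 46.3% and a ratio of observed to expected CpG of 0.283, and the Slc1a3 interval had 47.7% and 0.616, compared with medians of 60.2% and 0.698 over all TSS intervals. At the other end Lin28b had 72.0% and 1.08, and Msi1 68.0% and 0.734. The Msi1 promoter was nevertheless the third lowest of the set in accessibility, and Vim, among the 4 highest, had a GC content of 53.2%, at percentile 11.7 of promoters. The CpG ratio of Slc1a3 was above those of Prom1 (0.595), Nes (0.567), Vim (0.520) and Lin28a (0.412).

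In the printed windows, the letters found differed between genes. The Hmga2 window had ACAAAG 1 time (a match present in 33.5% of all distal windows of the same length), together with AACAAT (19.2%) and CAGCTG (22.8%). The Slc1a3 window had GTGGGAA 2 times (7.02%) and GACCACCCA, which occurred in 0.495% of distal windows. Both Nes windows had CAGCTG only. The whole Nes intron 2 interval of 1018 bp held ATGCNAAT 1 time, TAATTA 1 time and GTGGGAA 2 times, with 0 matches to either SOX motif.

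Over the 57 distal intervals of the set with a mean over 100, a SOX motif (ACAAAG or AACAAT, which can share letters) was in 34 windows (59.6%), compared with 44.4% of all such distal intervals and 15.0% of windows at TSS intervals. Over whole intervals, which differ in length, the shares were 86.0%, 75.1% and 58.0%, and 10 of 10 TSS intervals of the set held one. The SOX motifs were not alone in this: in the same 57 windows CCAAT was in 42.1% against 30.5%, while CAGCTG was in 14.0% against 21.8%. Cdh2 and Hmga2 held 18 and 11 of the 57 intervals. Distal intervals of the set had a median GC content of 45.3%, against 48.6% of all distal intervals. The bearing of base composition on these shares was not tested. Among the 10 strongest it was in 6 windows and 8 whole intervals. In the 250 bp upstream of the TSS, GGGCGG was present in 6 of 10 genes (39.0% of 21938 protein-coding genes) and CCAAT in 5 of 10 (36.0%), with Fabp7 among the second but not the first. Upstream of Fabp7, CCAAT was found 2 times and CAGATG, present in 13.0% of such regions, 1 time, each on the other strand. Slc1a3 was the 1 gene of 10 with TATAAA (11.5%). A match describes letters and not a bound site, and windows were set at interval centres, which need not be the points of highest signal.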

How the data were processed

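ATAC-seq was analysed for 2 replicate libraries of 1 group of sorted cells. The deposited table gives unnormalised counts of fragments for each consensus interval (mm10). Its header names featureCounts 2.0.1 in paired mode, where every interval covered by at least a fraction of 0.2 of a fragment receives it. The study's methods describe the nf-core atacseq pipeline with MACS peaks. Intervals were defined over 5 libraries, of which 3 match no sample here and were left aside, so weak regions appear only where a peak was called. The depth was 31876165 and 31672240 counts.

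Normalisation used size factors from DESeq2 (1.42.0), and levels per kb used interval length. Genes came from GENCODE M21. The TSS was the 5′ end of a protein-coding gene, distances were taken from the interval edge for assignment, and printed distances from its centre. All intervals ended within the chromosomes of the reference genome, and 4000 of 4000 RefSeq promoters compared matched its sequence. The exact binomial test, tested on simulated data, recovered 96 of 200 intervals changed by 2-fold among 119502, with 0 false calls. The simulated counts were Poisson, the model that the test assumes, so this does not describe counts with a wider spread. In the real libraries 8.39% of intervals had an unadjusted p under 0.05 in this test. Python 3.11.15, R 4.3.3, edgeR (4.0.16, TMM factors), numpy 2.4.6, scipy 1.17.1, pandas 2.3.3 and matplotlib 3.10.9 were used.

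The genes, lists, pairs and motifs were chosen with earlier results of these data known. Named were each gene's TSS interval and strongest distal interval, the 10 strongest distal intervals, the 3 with the largest replicate difference at a mean over 100, all pairs, and the ends of each list. Markers and intervals named beyond this were chosen after their values were seen. An item that met this rule is not reported here. Alternatives covered scaling, TSS definition, distance, low counts, counts per interval, motif window and each replicate alone. Fixed cells were not analysed here.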

Additional observations from a re-analysis of the deposited data

How the results depend on the processing

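The median promoter level of the 10 genes (753.5 counts per kb) was 700.5 with starts of protein-coding transcripts, where Lin28b fell from 1509 to 237, Cdh2 was 1160 and Lin28a 738, and it was 2263 as counts per interval. The corresponding medians of genes with a TSS interval were 884, 852.6 and 1156, so the set lay below the other genes per kb and above them per interval. The number of intervals (179) was 44 when genes of any type competed for the nearest TSS, since noncoding starts then took the rest. In 2 alternatives chosen after seeing the data, it was 103 without Cdh2 and 103 within 100 kb. The share with a mean over 100 (37.4%) was 59.1% with all gene types, 39.2% with a mean count of at least 10, 46.6% without Cdh2 and 48.5% within 100 kb. The share over all intervals was 38.8%, 40.3% with a mean count of at least 10 and 42.5% within 100 kb, so the set passed from below to above it within 100 kb and, against 38.8%, with all gene types and without Cdh2. The median of distal intervals (127 counts per kb) was 136 at a mean count of at least 10, 145 within 100 kb and 62.0 as counts per interval, against 125, 130.0, 128 and 55.5 over all distal intervals. The gene of the set was the higher in 8 pairs per interval, against 5, as Nes, Msi1 and Lin28a passed their relatives, and in 6 with transcript starts, where Lin28a did so. The median of the later radial glial list was 343 with transcript starts, against 168, so that Fabp7 and Slc1a3, both unchanged, passed from above to below it. With 1 replicate at a time, the promoter median was 745.6 to 761.5, the share 36.9% to 38.0%, the distal median 124.8 to 129.2 and the pairs 5. TMM factors or total counts moved the promoter median, the share and the distal median by less than the replicate spread, and 0 of the intervals of the set differed between the libraries with either. No paired analysis was possible because all samples belong to the same group. Depth limited the 8 intervals with a mean under 10 counts, and Prom1 at 21.3 kb (3 and 9 counts) shows the spread at such counts.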
